A study of Homo sapiens with 6 samples.

Results

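The genes of oxidative phosphorylation were compared between HCT116 cells carrying an shRNA against GDPD5 (shGDPD5) and HCT116 cells carrying a control shRNA (shCtrl). They were the protein-coding genes whose symbols begin with NDUF, UQCR, COX4 to COX8, ATP5 or SDHA to SDHD, together with CYC1, CYCS and the 13 protein-coding genes of the mitochondrial genome. By this rule 117 of the 79302 genes in the deposited table were members, 13 of them mitochondrially encoded and 104 nuclear. The 4 SDHAF assembly factors entered because their symbols begin with SDHA, and 113 members remain without them. The rule uses gene symbols alone. HCT116 is a human colorectal carcinoma line, and RNA-seq was done on 3 shGDPD5 and 3 shCtrl libraries. The study describes the cells as a radioresistant derivative taken 6 h after 4 Gy of irradiation, which both groups then share, whereas the sample labels name neither the derivative nor the irradiation. Which of the GDPD5 shRNAs was used in these libraries is not given, and a separate culture for each library is not stated, so the p-values measure the spread between libraries, which may be technical.

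Oxidative phosphorylation is carried out in the inner mitochondrial membrane. Complex I takes electrons from NADH and complex II takes them from succinate, ubiquinone carries them to complex III, and cytochrome c carries them on to complex IV, which reduces oxygen. Complexes I, III and IV pump protons, and complex V, the ATP synthase, uses the resulting gradient to make ATP. The mitochondrial genome supplies a few core subunits of complexes I, III, IV and V, transcribed as long polycistronic RNAs that are cut into mRNAs, while the nucleus supplies all other subunits, the whole of complex II and the assembly factors.

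Total counts were 16715447 to 18510670 per library, and 16755 genes passed the count filter. GDPD5 itself had 5.44, 5.55 and 5.19 CPM (counts scaled to a common library size with TMM factors) in shGDPD5 libraries, against 8.33, 11.6 and 9.75 CPM in shCtrl libraries, a log2 fold change of -0.88 (SE 0.135, edgeR adjusted p = 0.000116). With the cut at an adjusted p of 0.05, which is used throughout, 29.7% of all tested genes were higher in shGDPD5 cells and 30.1% were lower, and their median log2 fold change was 0.01. Among the 7004 genes of at least 24.7 CPM, a level that most nuclear subunits reach, 36.0% were higher and 36.0% lower. All 5 tested epithelial markers were lower in shGDPD5 cells, with summed levels of 2520 to 2630 CPM against 3160 to 3600 CPM in shCtrl cells, and CEACAM5 and LGALS4 stayed at or near 0. Fibroblast markers summed to 20.4 to 23.9 CPM in shGDPD5 and 19.0 to 21.5 CPM in shCtrl libraries, nearly all from COL1A1, with COL1A2, DCN and LUM at 0, and leukocyte and endothelial markers summed to at most 0.468 CPM in any library. The nuclear-retained RNAs MALAT1 and NEAT1 summed to 2710 to 2930 CPM in shGDPD5 and 3630 to 4340 CPM in shCtrl libraries. The part of these shifts in the results below was not tested. In RNA from whole cultures, fewer cells of a kind and less RNA per cell cannot be told apart.

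Nuclear subunit mRNAs were mostly higher in shGDPD5 cells, by small amounts. Of the 79 nuclear subunit genes, cytochrome c included, 47 were higher and 4 were lower, beside 29.7% higher and 30.1% lower over all tested genes. These are 59.5% and 5.06% of the subunits, and their median log2 fold change was 0.20, beside 0.01 over all tested genes. The mitochondrial genome moved in the same direction on balance, with 9 of 13 mRNAs higher, 1 lower and a median of 0.25. Log2 fold changes ran from -0.52 to 0.90 over the mitochondrial mRNAs and from -0.57 to 1.09 over the nuclear subunits. The 12 assembly factors among the members were split, with 4 higher and 5 lower and a median of 0.16. Over all 110 members tested, 62 were higher and 12 lower. The 7 members that failed the count filter were UQCRHL, COX4I2, COX6A2, COX7A1, COX7B2, COX8C and ATP5MGL. The libraries were not interchangeable within groups: shCtrl replicate 1 had the lowest of the 3 shCtrl levels for 56 of the 79 subunit genes. Without that library 45 subunit genes were higher and 10 lower, and the number lower was 2 without shGDPD5 replicate 2 and 1 without shGDPD5 replicate 3.

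**Figure D1:**
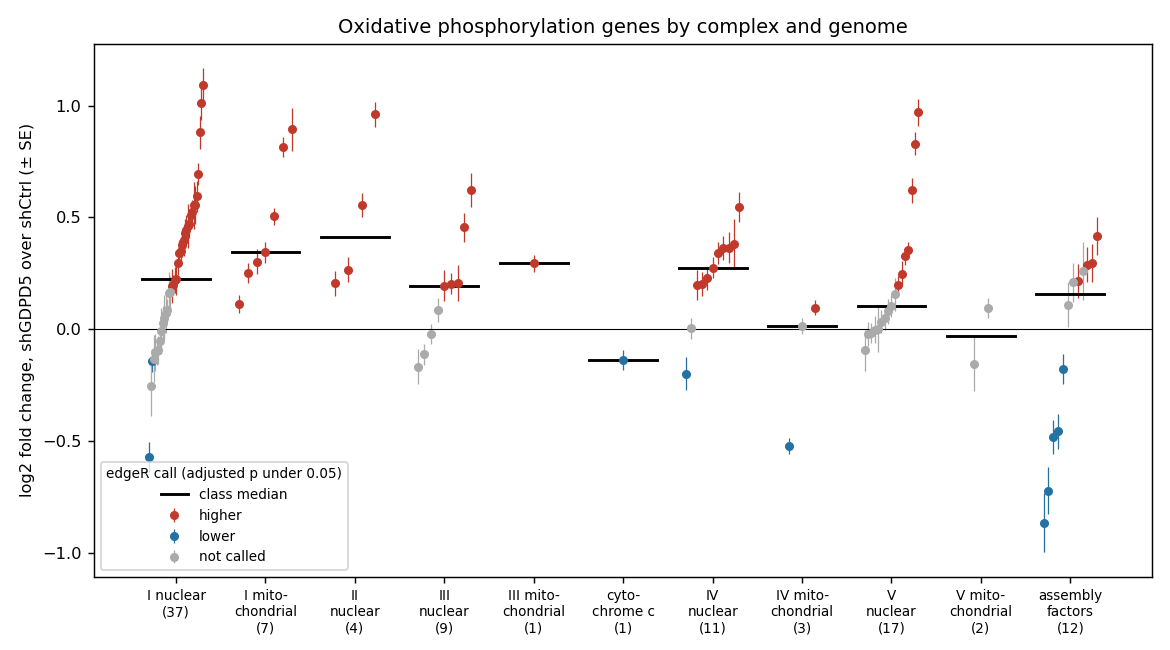
Log2 fold change (shGDPD5 over shCtrl) with its SE for each tested gene, by complex and genome, with the number of genes in parentheses. Red points were higher, blue points lower and grey points not called at an adjusted p under 0.05 in edgeR, and black bars are class medians. The medians of the nuclear classes of complexes I to V lie between 0.10 and 0.41, and MT-CO1 stands below the other mitochondrial genes at -0.52.

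By complex, the nuclear genes are set beside the 29.7% higher and 30.1% lower over all tested genes, and the 36.0% of each among genes of at least 24.7 CPM. All 4 genes of complex II were higher, with a median log2 fold change of 0.41. In complex IV 9 of 11 nuclear subunits were higher and 1 lower, with a median of 0.28. Complex I had 22 of 37 higher and 2 lower, with a median of 0.22. Complex III had 5 of 9 higher at a median of 0.20, which was 0.10 without shCtrl replicate 1. In complex V 7 of 17 were higher, a share near that of genes at this level, with a median of 0.10. No gene of complexes II, III and V was lower in edgeR, where at an unadjusted p under 0.05 the numbers lower were 0, 1 and 0, as they were in DESeq2 and in limma-voom after adjustment. No difference between complexes was tested, as genes are not replicates. Groups that did not overlap were found for 50 of the 79 nuclear subunit genes, and that share was not computed over all tested genes. Genes named per class below were chosen partly for such groups, so for them it is no further result.

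Summed over genes, the nuclear subunits took 8859, 8978 and 8692 CPM in shGDPD5 libraries, against 7337, 7620 and 7718 CPM in shCtrl libraries. The groups did not overlap in this sum. The 13 mitochondrial mRNAs took 10.05%, 10.69% and 10.33% of all counts in shGDPD5 libraries, against 9.34%, 9.18% and 8.99% in shCtrl libraries. That share was higher by 1.19 percentage points in shGDPD5 cells and its groups did not overlap either. As the nuclear sum was higher by a larger factor, the ratio of mitochondrial to nuclear subunit counts was lower in shGDPD5 cells, at 11.5 ± 0.366 against 12.4 ± 0.578 in shCtrl cells (SD, n = 3 each). The mitochondrial sum in CPM was 1.08 times as high in shGDPD5 as in shCtrl cells. Without MT-CO1 it was 84770 ± 3430 CPM in shGDPD5 and 69510 ± 1300 CPM in shCtrl cells, 1.22 times as high. MT-CO1 is the mitochondrial mRNA called lower, so leaving it out raises this factor by construction. No sum without the mRNAs that rose most was taken.

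**Figure D2:**
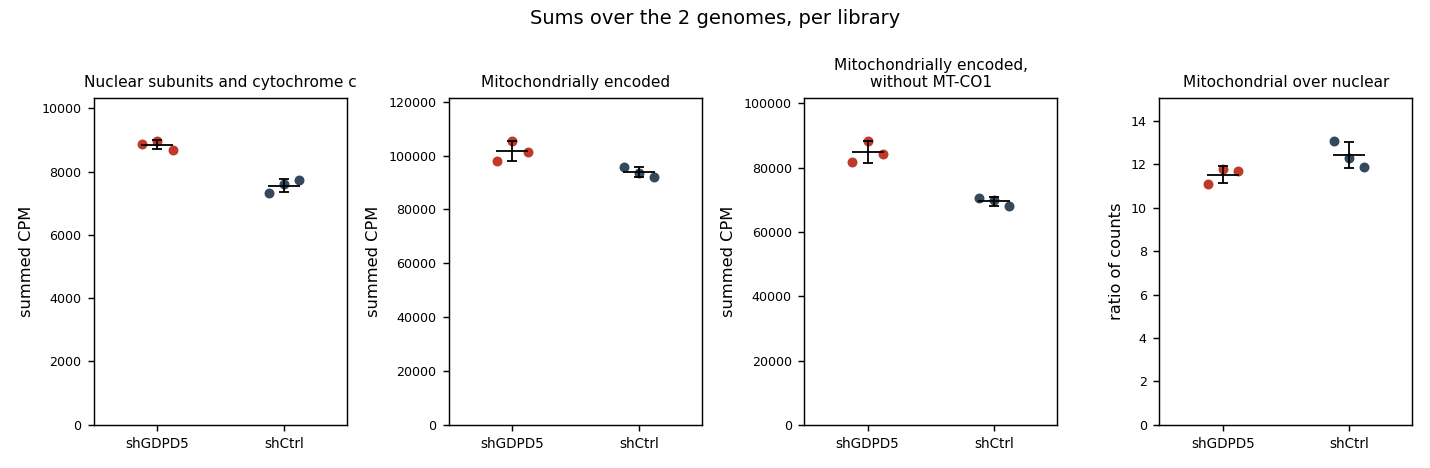
Summed CPM of nuclear subunits, of the mitochondrial mRNAs with and without MT-CO1, and the ratio of mitochondrial to nuclear counts, in each library (points) with group mean and SD (n = 3). The sums are higher in every shGDPD5 library than in any shCtrl library, while the ratio is lower, from 11.1 to 11.8 against 11.9 to 13.1.

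The ends of the coding sequences of MT-CO1, MT-ND6, MT-ND5 and MT-ND2 are shown. MT-CO1 and MT-ND6, chosen for the lowest and the highest log2 fold change among the mitochondrial genes, finish on AGA or AGG. The other mitochondrial genes finish on TAA or TAG or on the first bases of such a stop, which polyadenylation completes. Whether the ending bears on the mRNA level was not tested. The last 42 bases of each shown coding sequence follow, from GENCODE release 29 transcripts on GRCh38. The final codon or its incomplete remainder is in capitals. MT-CO1 lies at chrM:5904-7445 (+), MT-ND2 at chrM:4470-5511 (+), MT-ND5 at chrM:12337-14148 (+) and MT-ND6 at chrM:14149-14673 (-), and MT-ND5 and MT-ND6 abut on opposite strands.
MT-CO1: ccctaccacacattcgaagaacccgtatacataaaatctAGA
MT-ND6: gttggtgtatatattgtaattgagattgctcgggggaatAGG
MT-ND5: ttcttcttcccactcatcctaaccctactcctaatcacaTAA
MT-ND2: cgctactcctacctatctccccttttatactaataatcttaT

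MT-CO1, the catalytic subunit of complex IV, was the mitochondrial mRNA that fell. It had 16590, 17230 and 16960 CPM in shGDPD5 libraries, against 25250, 23640 and 23960 CPM in shCtrl libraries. Every shGDPD5 library was below every shCtrl library, and the log2 fold change was -0.52 (SE 0.036, edgeR adjusted p = 1.13e-07). Its share of mitochondrial mRNA counts was 16.7% ± 0.30 in shGDPD5 and 25.9% ± 0.57 in shCtrl cells (SD, n = 3 each). The other mitochondrial subunits of complex IV did not move with it. MT-CO2, which receives electrons from cytochrome c, had a log2 fold change of 0.02 (SE 0.035, adjusted p = 0.732 in edgeR), and MT-CO3 one of 0.10 (SE 0.034, adjusted p = 0.0267 in edgeR). The call for MT-CO3 was lost with each library left out in turn except shCtrl replicate 1 (edgeR adjusted p of 0.0643 to 0.106). It was also lost with a replicate block (edgeR adjusted p = 0.0632) and without a count filter (edgeR adjusted p = 0.183).

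All 7 mitochondrial subunits of complex I, which build the membrane arm, were higher in shGDPD5 cells. MT-ND5 had 10530, 11190 and 10730 CPM in shGDPD5 libraries, against 6495, 6112 and 5842 CPM in shCtrl libraries, a log2 fold change of 0.82 (SE 0.044, edgeR adjusted p = 1.18e-08). Its groups were far apart, and its share of mitochondrial mRNA was 10.6% in shGDPD5 and 6.55% in shCtrl cells. MT-ND2 had 8080, 8559 and 8330 CPM in shGDPD5 libraries, against 6052, 5820 and 5739 CPM in shCtrl libraries, a log2 fold change of 0.50 (SE 0.038, edgeR adjusted p = 2.39e-07). Neither gene's groups overlapped. MT-ND6 had 1922, 2696 and 2063 CPM in shGDPD5 libraries, against 1173, 1247 and 1172 CPM in shCtrl libraries, a log2 fold change of 0.90 (SE 0.096, edgeR adjusted p = 5.41e-06). Its shGDPD5 replicate 2 stood above the other shGDPD5 libraries, and all of them were above shCtrl. It is the only mitochondrial mRNA of the set transcribed from the opposite strand, and as the use of strand in counting is not given in the sources used here, reads of its antisense RNA cannot be told apart from its own.

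The log2 fold changes of MT-ND4, MT-ND4L and MT-ND3 were 0.34, 0.30 and 0.25, each with groups that did not overlap. MT-ND4L and MT-ND4 lie on a shared mRNA and their coding parts overlap, so they are not separate measurements. MT-ND1 was higher by 0.11 (SE 0.04, edgeR adjusted p = 0.0302). This call was lost without shGDPD5 replicate 2 or 3 or shCtrl replicate 2 or 3 (edgeR adjusted p of 0.0641 to 0.163). It was also lost without a count filter (edgeR adjusted p = 0.112). MT-CYB, the mitochondrial subunit of complex III, had 8665, 8883 and 8953 CPM in shGDPD5 libraries, against 6895, 7415 and 7301 CPM in shCtrl libraries, a log2 fold change of 0.29 (SE 0.038, edgeR adjusted p = 2.91e-05). Its groups did not overlap.

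The complex V genes MT-ATP8 and MT-ATP6, which share an mRNA and overlap in sequence, did not pass the test. MT-ATP6 had a log2 fold change of 0.10 (SE 0.046, edgeR adjusted p = 0.0949), with an adjusted p of 0.0433 without shCtrl replicate 1. A nuclear copy, MTATP6P1, carried nearly all of the counts that nuclear copies held, equal to 13.9% of those of MT-ATP6, and its own log2 fold change was 0.06 (edgeR adjusted p = 0.361). MT-ATP8 had 1525, 2258 and 1507 CPM in shGDPD5 libraries, against 1940, 2093 and 1860 CPM in shCtrl libraries. The groups overlapped through shGDPD5 replicate 2 alone, and without that library its log2 fold change was -0.38 (edgeR adjusted p = 7.24e-05), against -0.16 (SE 0.121, adjusted p = 0.288) with all libraries, so that 2 mitochondrial genes were then lower.

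Read along the H-strand transcript, the log2 fold change was 0.10 (SE 0.034) for MT-CO3, 0.25 (SE 0.044) for MT-ND3, 0.30 (SE 0.056) and 0.34 (SE 0.045) for MT-ND4L and MT-ND4 on their shared mRNA, and 0.82 (SE 0.044) for MT-ND5. The steps from MT-ND3 to MT-ND4L and on to MT-ND4 were no larger than the SE of MT-ND4L. MT-CYB, which follows MT-ND5, had 0.29. Upstream, MT-ND1, MT-ND2 and MT-CO1 had 0.11, 0.50 and -0.52 in that order, so these neighbours differed more than their SEs. Between MT-CO1 and MT-CO3, MT-CO2, MT-ATP8 and MT-ATP6 had 0.02, -0.16 and 0.10 (SE 0.035, 0.121 and 0.046). MT-ATP6 and its neighbour MT-CO3 did not differ by more than their SEs. The rRNA genes at the start of the same strand differed most. The small-subunit rRNA MT-RNR1 had 4541, 4349 and 4707 CPM in shGDPD5 libraries, against 1384, 1388 and 1381 CPM in shCtrl libraries, a log2 fold change of 1.71 (SE 0.041, edgeR adjusted p = 1.73e-11). The large-subunit rRNA MT-RNR2 was lower by -0.15 on the log2 scale (SE 0.04, edgeR adjusted p = 0.00546). The paper does not describe how RNA was selected for the libraries, so these rRNA counts are not taken as a measure of total rRNA.

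**Figure D3:**
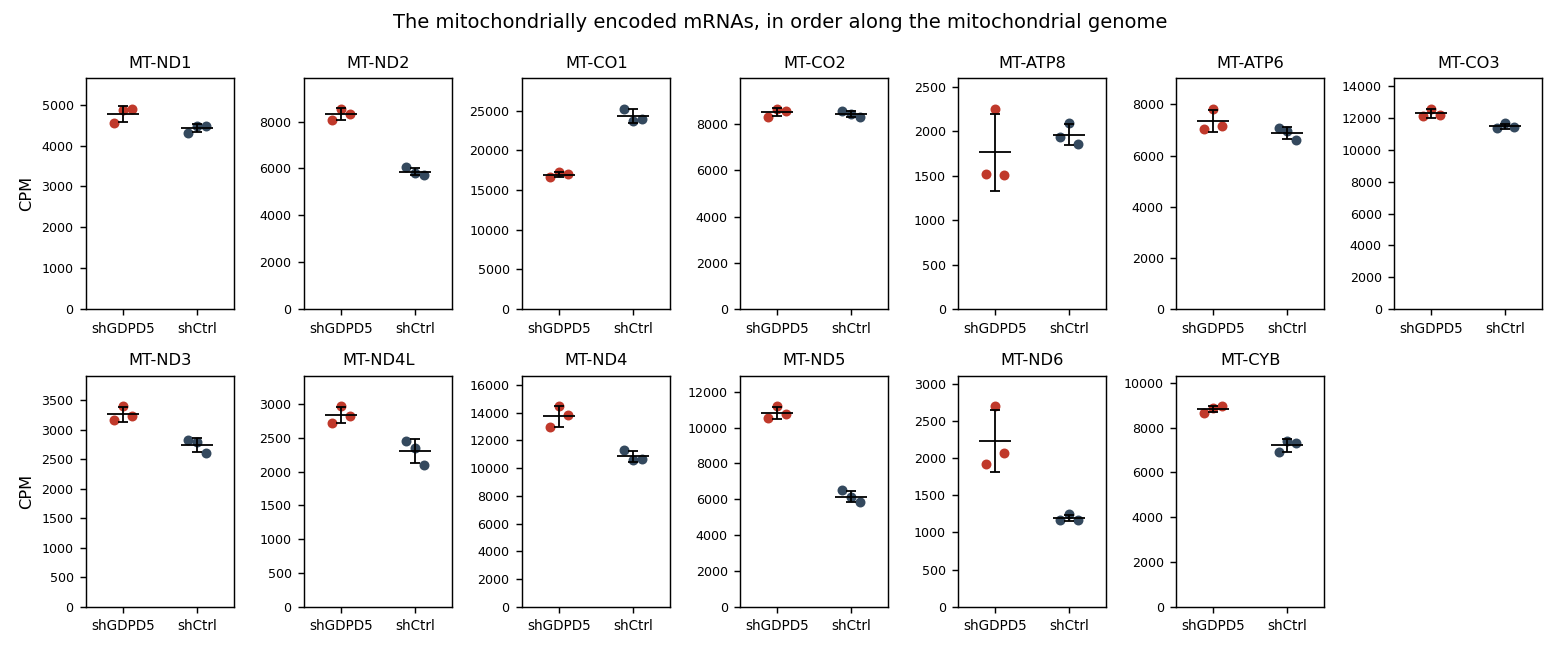
CPM of the 13 mitochondrial mRNAs in each library, with group mean and SD (n = 3), ordered along the mitochondrial genome from MT-ND1 to MT-CYB, each panel on its own axis from 0. The groups are apart for MT-ND2, MT-CO1, MT-ND5 and MT-CYB and overlap for MT-CO2, MT-ATP6 and MT-ATP8.

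**Figure D4:**
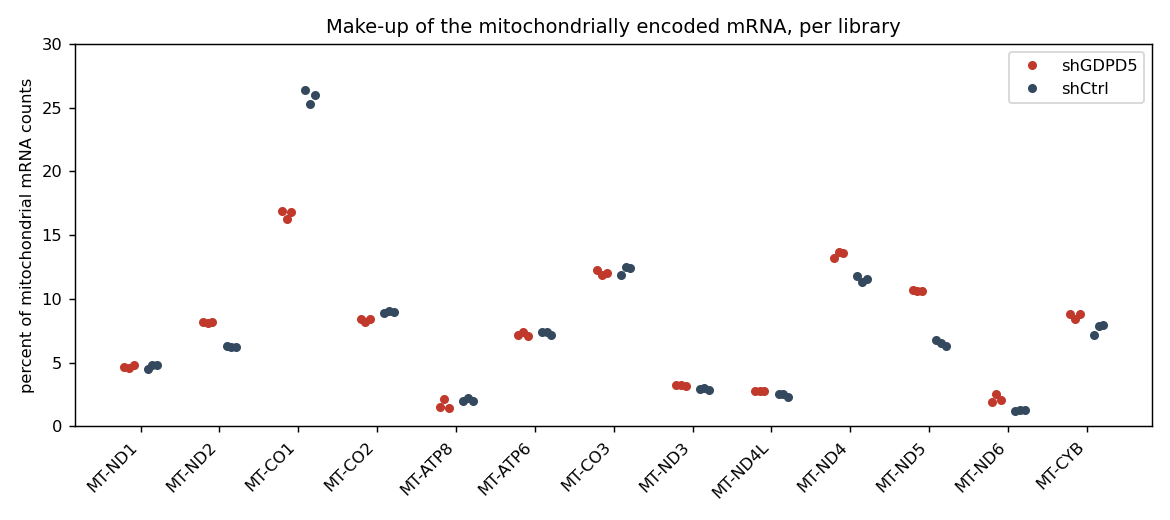
Percent of mitochondrial mRNA counts taken by each gene in each library (points). MT-CO1 takes 16.3% to 16.9% in shGDPD5 and 25.3% to 26.4% in shCtrl libraries, and MT-ND5 takes 10.6% to 10.7% in shGDPD5 and 6.35% to 6.78% in shCtrl libraries.

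In complex I the nuclear core subunits form the peripheral arm, which takes up NADH and holds the iron-sulfur clusters. NDUFV1, which binds FMN and NADH, had 82.9, 73.6 and 81.2 CPM in shGDPD5 libraries, against 53.3, 60.5 and 61.0 CPM in shCtrl libraries, a log2 fold change of 0.44 (SE 0.067, edgeR adjusted p = 9.65e-05). Its groups did not overlap. NDUFS7 and NDUFS3, which are further subunits of this arm, had log2 fold changes of 0.46 and 0.40, both with groups apart. NDUFS1, the largest iron-sulfur subunit, was lower by -0.14 on the log2 scale (SE 0.05, edgeR adjusted p = 0.0268), and this call was lost without any one of the shGDPD5 libraries (adjusted p of 0.0597 to 0.0844).

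Of the 30 accessory subunits of complex I, which surround that core, 18 were higher and 1 lower. Over all tested genes 29.7% were higher and 30.1% lower, and 36.0% of each among those of at least 24.7 CPM. NDUFB8, a membrane-arm subunit often used as a marker of assembled complex I, had the largest log2 fold change of all members. It had 118.5, 100.2 and 117.2 CPM in shGDPD5 libraries, against 47.9, 54.0 and 55.5 CPM in shCtrl libraries. These groups were well apart, and the log2 fold change was 1.09 (SE 0.075, edgeR adjusted p = 9.87e-08). NDUFB8 lies at chr10:100523740-100530000 (-) and its exons share 325 bases with HIF1AN on the other strand, whose counts summed to 9530 in shGDPD5 and 6772 in shCtrl libraries. Without strand, reads from that stretch cannot be told apart. NDUFA2, in the peripheral arm, had 43.0, 42.1 and 41.1 CPM in shGDPD5 libraries, against 18.6, 20.9 and 23.0 CPM in shCtrl libraries, a log2 fold change of 1.01 (SE 0.075, edgeR adjusted p = 2.03e-07). Its groups did not overlap, and its exons share 70 bases with IK and 124 with TMCO6 on the other strand. The counts of IK summed to 7132 in shGDPD5 and 5495 in shCtrl libraries, and those of TMCO6 to 388 and 371. Without strand, reads from these stretches cannot be told apart either. NDUFB8 and NDUFA2 were the members with a log2 fold change of at least 1 in either direction.

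NDUFB6 and NDUFS5 were also higher, by 0.88 (SE 0.075, edgeR adjusted p = 6.59e-07) and 0.70 (SE 0.049, edgeR adjusted p = 1.19e-07) on the log2 scale. By name series, 9 of 13 NDUFA and NDUFAB1 genes and 7 of 11 NDUFB genes were higher, beside 29.7% over all tested genes. NDUFS4, an accessory subunit mutated in some patients with Leigh syndrome, went the other way. It had 48.3, 53.2 and 45.1 CPM in shGDPD5 libraries, against 75.5, 73.7 and 68.6 CPM in shCtrl libraries, a log2 fold change of -0.57 (SE 0.067, edgeR adjusted p = 1.2e-05). Every shGDPD5 library was below every shCtrl library.

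All 4 subunits of complex II, which is also succinate dehydrogenase of the tricarboxylic acid cycle, were higher with groups that did not overlap. SDHA, the flavoprotein that oxidizes succinate, had 105.8, 108.8 and 109.1 CPM in shGDPD5 libraries, against 51.4, 56.5 and 58.4 CPM in shCtrl libraries, a log2 fold change of 0.96 (SE 0.057, edgeR adjusted p = 2.44e-08). Its values in shGDPD5 cells were close to each other and far above shCtrl. SDHA shares sequence with pseudogenes, and rows named for those carried counts equal to 46.5% of its own, with log2 fold changes of 0.80 for SDHAP1 and 0.93 for SDHAP4, so its exact level is uncertain. SDHC, a membrane anchor, had a log2 fold change of 0.56 (SE 0.053, edgeR adjusted p = 2.04e-06). SDHD, the other anchor, had 0.27 and SDHB, the iron-sulfur subunit, 0.21.

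The promoters of NDUFB8, the gene of complex I that rose most, of SDHA, the gene of complex II that rose most, and of NDUFS4, which fell, are given for comparison of genes that moved apart within related complexes. Each is the RefSeq window (GRCh38.p14) from 250 bases before to 50 after a transcription start, with capitals for matches to 3 motifs that are known at mitochondrial gene promoters. These were GCGCANGCG for NRF1, CCGGAAG for ETS factors such as GABPA, and AAGATGGC for YY1, on both strands. Overlapping matches were each counted.
NDUFB8: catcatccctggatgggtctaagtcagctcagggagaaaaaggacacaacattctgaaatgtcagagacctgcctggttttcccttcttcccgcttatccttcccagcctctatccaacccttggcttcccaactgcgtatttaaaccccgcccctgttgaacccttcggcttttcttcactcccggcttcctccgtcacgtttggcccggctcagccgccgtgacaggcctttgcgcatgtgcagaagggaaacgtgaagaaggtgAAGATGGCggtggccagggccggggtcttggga
SDHA: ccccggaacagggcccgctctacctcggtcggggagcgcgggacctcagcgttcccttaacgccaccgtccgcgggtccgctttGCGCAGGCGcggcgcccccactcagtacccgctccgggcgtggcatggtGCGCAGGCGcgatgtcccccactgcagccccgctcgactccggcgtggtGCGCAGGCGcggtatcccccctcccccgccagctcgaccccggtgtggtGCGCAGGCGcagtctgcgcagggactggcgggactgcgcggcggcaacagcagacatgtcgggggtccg
NDUFS4: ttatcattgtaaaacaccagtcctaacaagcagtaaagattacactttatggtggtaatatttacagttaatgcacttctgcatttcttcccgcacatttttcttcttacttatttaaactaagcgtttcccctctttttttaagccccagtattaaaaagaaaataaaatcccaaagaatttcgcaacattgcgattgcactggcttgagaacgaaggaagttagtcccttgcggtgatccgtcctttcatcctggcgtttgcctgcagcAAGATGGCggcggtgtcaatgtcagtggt

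The NDUFB8 window lies at chr10:100529822-100530121 (-) and holds 1 match, to the YY1 motif, while the window of its other RefSeq start, at chr10:100529874-100530173 (-), holds none. The SDHA window at chr5:218070-218369 (+) holds 4 matches to the NRF1 motif and none to the others. The NDUFS4 window at chr5:53560389-53560688 (+) holds 1 match to the YY1 motif. The window of NDUFA2, which rose, and both windows of COX7A2L, which fell, hold none of these motifs. RefSeq windows were found for 65 of the 79 nuclear subunit genes. The NRF1 motif was in 35.4% of these genes, the ETS motif in 32.3% and the YY1 motif in 18.5%, against 12.5%, 16.5% and 4.66% of 15843 protein-coding genes in the same table. Among subunits called higher, 11 of 35 held the NRF1 motif, 12 the ETS motif and 9 the YY1 motif, while among subunits not called 12 of 26 held the NRF1 motif, 7 the ETS motif and 2 the YY1 motif. Of the 4 subunits called lower 0 held the NRF1 motif, 2 the ETS motif and 1 the YY1 motif, a YY1 share of 25.0% against 25.7% in those called higher. A match is a run of letters and not evidence of binding.

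In complex III UQCR10, a small subunit, had 62.0, 61.6 and 61.9 CPM in shGDPD5 libraries, against 34.8, 42.2 and 43.6 CPM in shCtrl libraries, a log2 fold change of 0.62 (SE 0.076, edgeR adjusted p = 1.6e-05). Its groups did not overlap. UQCRQ and UQCRH, which are also small subunits, had log2 fold changes of 0.46 and 0.20 with groups apart. CYC1, the cytochrome c1 subunit, and UQCRC1, a core protein, were higher by 0.21 and 0.19 (edgeR adjusted p of 0.0431 and 0.0317), but each call was lost when any shGDPD5 library or shCtrl replicate 1 or 2 was left out (adjusted p of 0.0501 to 0.156). The groups of CYC1 overlapped. UQCRFS1, the Rieske iron-sulfur protein, had a log2 fold change of 0.09 (SE 0.053, edgeR adjusted p = 0.183). CYCS, the cytochrome c that links complexes III and IV, was lower in shGDPD5 cells. It had 474, 471 and 460 CPM in shGDPD5 libraries, against 536, 506 and 504 CPM in shCtrl libraries, a log2 fold change of -0.14 (SE 0.043, edgeR adjusted p = 0.014). Its groups did not overlap, and without shGDPD5 replicate 3 the adjusted p was 0.0776.

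In complex IV COX4I1, the ubiquitous form of a regulatory subunit, had 287.6, 293.9 and 283.6 CPM in shGDPD5 libraries, against 195.7, 230.2 and 245.5 CPM in shCtrl libraries, a log2 fold change of 0.36 (SE 0.069, edgeR adjusted p = 0.000557). The groups did not overlap, and shCtrl replicate 1 was the lowest. COX6B1, COX6C, COX7A2 and NDUFA4 had log2 fold changes of 0.55, 0.36, 0.28 and 0.34, all with groups apart. NDUFA4 was named as a complex I gene and is now counted in complex IV. COX7B was higher by 0.20 (SE 0.054, edgeR adjusted p = 0.0068). COX6A1, with 0.20, lost its call without any one of the shGDPD5 libraries (edgeR adjusted p of 0.0504 to 0.0716), and COX8A, with 0.38 and overlapping groups, lost it without shGDPD5 replicate 1 or shCtrl replicate 1 (0.0606 and 0.0559). COX5B was the nuclear subunit of complex IV called lower, at -0.20 with overlapping groups (SE 0.074, edgeR adjusted p = 0.0345), and it was chosen here after its values were seen.

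The tissue forms of complex IV subunits were nearly silent, as COX4I2, COX6A2, COX7A1 and COX7B2 had 0 counts in all 6 libraries. COX8C, known from testis, had 0, 2 and 1 counts in shGDPD5 libraries and 0 in each shCtrl library. COX6B2, another testis form, had 11, 12 and 17 counts in shGDPD5 libraries, against 21, 23 and 28 counts in shCtrl libraries, a log2 fold change of -0.88 (SE 0.281, edgeR adjusted p = 0.0169). These few counts did not overlap between groups, but the call was lost without shGDPD5 replicate 1 or 2 or shCtrl replicate 3 (adjusted p of 0.062 to 0.073) and in DESeq2 (0.0936). NDUFA4L2, a hypoxia-induced relative of NDUFA4, had 11, 6 and 8 counts in shGDPD5 libraries, against 10, 18 and 14 counts in shCtrl libraries, and did not pass the test (edgeR adjusted p = 0.0944). COX7A2L, which promotes the joining of complexes III and IV into supercomplexes, was well expressed and lower. It had 66.7, 71.5 and 69.4 CPM in shGDPD5 libraries, against 109.8, 108.9 and 111.3 CPM in shCtrl libraries, a log2 fold change of -0.67 (SE 0.049, edgeR adjusted p = 1.72e-07). Its groups were far apart, in the opposite direction to COX7A2.

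In complex V the c-ring of the ATP synthase is built of a peptide whose mature form is the same from ATP5MC1, ATP5MC2 and ATP5MC3. ATP5MC1 had 87.3, 88.9 and 83.1 CPM in shGDPD5 libraries, against 47.0, 49.3 and 49.4 CPM in shCtrl libraries, a log2 fold change of 0.83 (SE 0.053, edgeR adjusted p = 4.95e-08). ATP5MC3 had 154.0, 164.6 and 150.2 CPM in shGDPD5 libraries, against 95.5, 101.8 and 107.5 CPM in shCtrl libraries, a log2 fold change of 0.62 (SE 0.056, edgeR adjusted p = 1.22e-06). The groups of both genes were apart. ATP5MC2 had 66.2, 78.7 and 71.6 CPM in shGDPD5 libraries, against 65.0, 80.8 and 85.4 CPM in shCtrl libraries, with a log2 fold change of -0.09 (SE 0.092, edgeR adjusted p = 0.402). Its groups overlapped, and without shCtrl replicate 1 it was lower by -0.21 (edgeR adjusted p = 0.017).

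ATP5MF, a membrane-part subunit, had 101.2, 107.8 and 98.1 CPM in shGDPD5 libraries, against 48.7, 53.4 and 54.7 CPM in shCtrl libraries, a log2 fold change of 0.97 (SE 0.06, edgeR adjusted p = 3.74e-08). The groups did not overlap. The read-through gene ATP5MF-PTCD1, which shares exons with it, had 9.76, 9.87 and 8.23 CPM in shGDPD5 and 7.10, 7.56 and 6.17 CPM in shCtrl libraries. The alpha and beta subunits of the catalytic head, ATP5F1A and ATP5F1B, were higher by 0.35 and 0.33, with ATP5F1B at 762, 759 and 748 CPM in shGDPD5 libraries, against 595, 598 and 616 CPM in shCtrl libraries. ATP5F1C, ATP5F1D and ATP5F1E, which make up the central stalk, did not pass the test, with log2 fold changes of 0.10, 0.001 and -0.002. ATP5IF1, the inhibitor that stops the enzyme from hydrolysing ATP, had 64.3, 60.3 and 60.7 CPM in shGDPD5 libraries, against 38.2, 43.4 and 45.8 CPM in shCtrl libraries, a log2 fold change of 0.54 (SE 0.069, edgeR adjusted p = 2.36e-05). Its groups were apart.

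**Figure D5:**
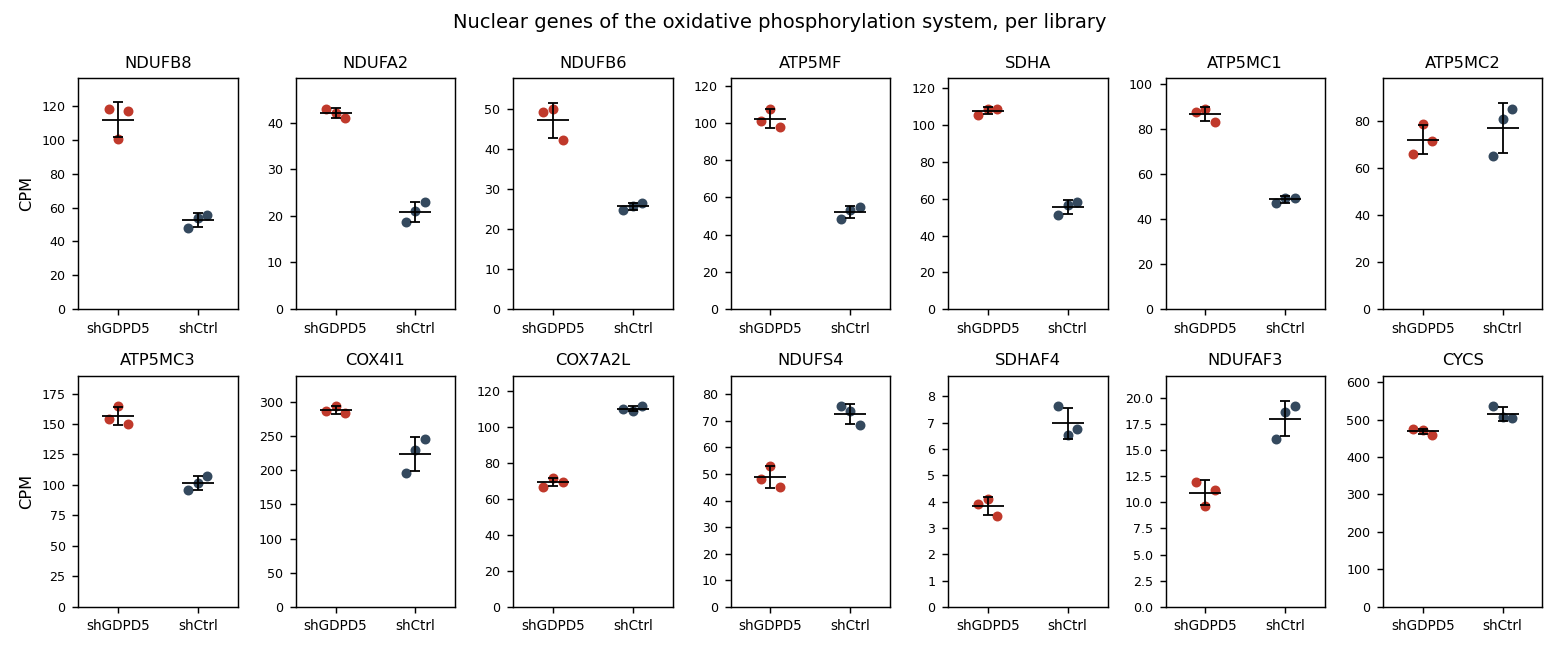
CPM of 14 nuclear genes in each library, with group mean and SD (n = 3), each panel on its own axis from 0. NDUFB8, NDUFA2, NDUFB6, ATP5MF, SDHA, ATP5MC1, ATP5MC3 and COX4I1 are higher in every shGDPD5 library, COX7A2L, NDUFS4, SDHAF4, NDUFAF3 and CYCS are lower, and ATP5MC2 overlaps.

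The assembly factors, which are not part of the finished complexes, moved in both directions within a complex. For complex II, SDHAF4, which binds flavinated SDHA, had 3.92, 4.11 and 3.44 CPM in shGDPD5 libraries, against 7.63, 6.55 and 6.75 CPM in shCtrl libraries, a log2 fold change of -0.86 (SE 0.133, edgeR adjusted p = 0.000113). SDHAF3, which helps to mature SDHB, had a log2 fold change of -0.48 (SE 0.077, edgeR adjusted p = 0.000154), and SDHAF2, needed for flavination of SDHA, one of 0.42 (SE 0.084, edgeR adjusted p = 0.000893). Groups that do not overlap were a condition for naming these 3 genes. For complex I, NDUFAF3 had 11.9, 9.61 and 11.2 CPM in shGDPD5 libraries, against 16.1, 18.7 and 19.2 CPM in shCtrl libraries, a log2 fold change of -0.72 (SE 0.105, edgeR adjusted p = 7.34e-05). Its groups were apart, and its exons share 527 bases with DALRD3 on the other strand. The counts of DALRD3 summed to 892 in shGDPD5 and 950 in shCtrl libraries, and without strand reads from that stretch cannot be told apart. NDUFAF2 was lower by -0.46, while NDUFAF5 and NDUFAF6 were higher by 0.30 and 0.29, all with groups apart. NDUFAF7, with 0.22, lost its call without shGDPD5 replicate 2 or shCtrl replicate 2 (edgeR adjusted p of 0.144 and 0.115). The call was also lost in DESeq2 (adjusted p = 0.0973), and in edgeR with the replicate block (0.0531) and without a count filter (0.0766).

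Genes around the pathway were taken from lists outside the symbol rule. Of 24 tested regulators of mitochondrial gene expression 9 were higher and 5 lower, with a median log2 fold change of 0.07, beside 29.7% higher and 30.1% lower over all tested genes. TFAM, which packages and transcribes mitochondrial DNA, was higher by 0.27 (SE 0.064, edgeR adjusted p = 0.00299), TEFM, the transcription elongation factor, by 0.68 and MTERF2 by 0.78. POLRMT, the mitochondrial RNA polymerase, had -0.001 (edgeR adjusted p = 0.995) and NRF1 0.003 (edgeR adjusted p = 0.975). PPARGC1A, a coactivator of this programme, had 0 counts in all libraries. GABPB1, a subunit of the ETS factor GABP, had 19.5, 17.1 and 16.6 CPM in shGDPD5 libraries, against 28.5, 26.4 and 26.5 CPM in shCtrl libraries, a log2 fold change of -0.61 (SE 0.079, edgeR adjusted p = 2.42e-05), with groups apart. Its partner GABPA had -0.03 (edgeR adjusted p = 0.738). YY1, the factor of the third motif, was lower by -0.18 on the log2 scale (SE 0.049, edgeR adjusted p = 0.00643).

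Of 18 tested genes of mitochondrial RNA processing and decay 8 were higher and 5 lower, with a median of 0.05, beside 29.7% higher and 30.1% lower over all tested genes. FASTKD5, needed to mature MT-CO1 mRNA, had 36.5, 38.6 and 37.8 CPM in shGDPD5 libraries, against 21.6, 21.5 and 19.5 CPM in shCtrl libraries, a log2 fold change of 0.85 (SE 0.066, edgeR adjusted p = 2.8e-07). Its groups did not overlap. ELAC2, which trims tRNA ends out of the polycistronic RNA, had 0.59, PNPT1, which degrades mitochondrial RNA, -0.50 and GRSF1, a granule protein that binds MT-ND6 RNA, -0.35. LRPPRC, which stabilises mitochondrial mRNAs, was higher by 0.14 (SE 0.049, edgeR adjusted p = 0.0251) while its partner SLIRP had -0.49 (SE 0.071, edgeR adjusted p = 6.88e-05).

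Of 44 further assembly factors 15 were higher and 11 lower, with a median log2 fold change of 0.02, near the 29.7% higher and 30.1% lower over all tested genes. OXA1L, which inserts proteins into the inner membrane, and COX15, which makes heme a, were higher by 0.44 and 0.45, while TTC19 and UQCC2, which serve complex III, had -0.61 and -0.73. Of 25 genes of the tricarboxylic acid cycle and pyruvate dehydrogenase 14 were higher and 3 lower, with a median of 0.16. CS, the citrate synthase, had 239.2, 233.0 and 234.8 CPM in shGDPD5 libraries, against 168.2, 164.3 and 167.1 CPM in shCtrl libraries, a log2 fold change of 0.50 (SE 0.042, edgeR adjusted p = 5.92e-07). PDK1, a kinase that turns pyruvate dehydrogenase off, had 12.4, 12.7 and 12.6 CPM in shGDPD5 libraries, against 32.7, 29.8 and 28.8 CPM in shCtrl libraries, a log2 fold change of -1.27 (SE 0.076, edgeR adjusted p = 2.77e-08). CS and PDK1 had groups that were far apart. PDK2, another such kinase, went the other way, with 25.8 CPM in shGDPD5 and 18.5 CPM in shCtrl cells on average. Its log2 fold change was 0.48 (SE 0.08, edgeR adjusted p = 0.000236). PDK3 and PDK4 were not called. Of 15 carriers and channels 6 were higher and 3 lower, with a median of 0.11, to be read beside the same shares. SLC25A5, which exchanges ADP for ATP across the inner membrane, and SLC25A3, which imports phosphate, were higher by 0.98 (SE 0.053, edgeR adjusted p = 1.17e-08) and 0.60 (SE 0.041, edgeR adjusted p = 9.34e-08).

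Levels between genes were compared per kilobase of exon. The 13 mitochondrial mRNAs ranged from 4242 CPM per kilobase for MT-ND6 to 15700 for MT-CO3 in shGDPD5 cells, and from 2281 for MT-ND6 to 15750 for MT-CO1 in shCtrl cells, so the most abundant mitochondrial mRNA was MT-CO3 in shGDPD5 and MT-CO1 in shCtrl cells. The nuclear subunits lay far below, with ATP5F1B at 326 CPM per kilobase in shGDPD5 and 260 in shCtrl cells, and NDUFS5 at 290.3 in shGDPD5 and 179 in shCtrl cells. Exon lengths here are those of GENCODE release 29, and the annotation behind the deposited counts is not given in the sources used here.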

How the data were processed

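RNA-seq was analysed for 3 shGDPD5 and 3 shCtrl libraries of HCT116 cells. What the authors deposited is a single matrix of estimated counts, 79302 genes by 6 libraries, not scaled to a common total. Its aligner, counter, use of strand, build and annotation were not given in the sources used here. Estimated counts were rounded to whole numbers and fitted in R 4.3.3 with edgeR 4.0.16 (filterByExpr with a minimum count of 10, TMM, two-sided quasi-likelihood test, Benjamini-Hochberg over 16755 genes), and members were read from that fit, which was also tested on simulated data. The common biological coefficient of variation was 0.0555. With totals of 16715447 to 18510670 counts, genes of few counts are measured imprecisely.

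The symbol rule left out 204 rows that are not protein-coding. Gene types, positions, overlaps and exon lengths came from GENCODE release 29 (GRCh38), and promoters from RefSeq. The members and lists were chosen with earlier results of these data known. Genes named were all mitochondrial genes, paralog families, 10 landmarks, members with a log2 change of 1 or more in size, and per class up to 4 in each direction with the smallest adjusted p and groups that do not overlap; from the other lists up to 3 in each direction and 5 fixed regulators were eligible. COX5B, GABPA, YY1, ATP5F1C, ATP5F1D, ATP5F1E and ATP5MF-PTCD1 were added after their values were seen, and some genes that the rule names are not reported here. Alternatives were RLE and upper quartile factors, factors from nuclear genes only, DESeq2 1.42.0, limma-voom (limma 3.58.1), a replicate block, no filter or at least 10 counts per library, leaving out each library, the study's kind of threshold, and other denominators of the mitochondrial share.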

Additional observations from a re-analysis of the deposited data

How the results depend on the processing

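Of 195 values recomputed under other settings, 184 stayed near the main value, and of 144 with a library left out 138 did. Near was a wide limit for counts, as 6 nuclear subunits lower without a filter passed as near 4. For medians it meant a shift smaller than the SD between libraries. For medians near 0 this did not require the same sign. Several settings only rescale all genes together, and the results are nested, so high tallies follow in part from the design. With a library left out, the median of the mitochondrial genes of complex IV ran from -0.005 to 0.032. That of complex V ran from -0.171 to 0.031. A threshold like the study's, an unadjusted p under 0.05 and a log2 change of 1 or more in size, was set on the edgeR fit. With it 2007 genes passed (902 higher, 1105 lower). Among them were 2 nuclear subunit genes (2 higher, 0 lower) and 0 mitochondrial genes (0 higher, 0 lower), because the fold threshold is larger than most of the changes. The paper reports far fewer genes for this comparison, and its methods also name a t test and other fold cuts, so its count is not reproduced here. The mitochondrial share was higher by 1.19 percentage points over all counts, but over oxidative phosphorylation counts alone it was -0.544 points, at 92.0% in shGDPD5 and 92.5% in shCtrl cells, since the nuclear sum was higher by a larger factor. Without a filter 7 mitochondrial genes were higher and 2 lower. With 1 library left out, nuclear subunits called lower numbered 1 to 10, mitochondrial genes called lower 1 to 2 and mitochondrial genes called higher 7 to 10. The medians were then 0.377 to 0.433 for complex II and 0.101 to 0.195 for nuclear complex III. The cause was not tested. Factors from nuclear genes only gave 47 higher and 4 lower nuclear subunits and 9 higher and 1 lower mitochondrial genes.

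Same-numbered libraries did not deviate together (correlations of -0.07, -0.052 and -0.041), and other pairs were also near 0, from -0.021 to 0.067. The labels do not say whether same-numbered samples were handled together, and these correlations cannot exclude it. With a replicate block 9645 genes were called, among them 46 nuclear subunits higher and 3 lower, 8 mitochondrial genes higher and 1 lower, and 3 assembly factors higher and 4 lower. Of 60 named members tested, calls changed in 8 of 479 values under other settings and in 36 of 360 with a library left out, and no called direction was reversed. Many of these members were named for a small adjusted p and groups apart, which favours calls that hold. Depth limits COX6B2 and NDUFA4L2, which had 6 to 28 counts per library.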
